A study of Mus musculus with 16 samples.

Results

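The protein phosphatase genes were examined as one family in 3 pairs of mouse lymphocyte populations, each made of an innate-like population and its adaptive counterpart. A gene was a member where a probe set with a single symbol named a Ptpn, Ptpr or Dusp gene or a gene written Ppp and a digit, and Ptpn22 and Dusp2 were left out by the rule. This gave 94 probe sets for 71 genes, of 8251 genes named by single-symbol probe sets, and each gene was read from its brightest probe set over all arrays. By name, 18 members were receptor-type tyrosine phosphatases, 13 were non-receptor tyrosine phosphatases, 8 were dual-specificity phosphatases and 31 were serine/threonine phosphatase genes, of which 10 encode catalytic and 21 regulatory or associated subunits. Ptprcap, whose product binds CD45 and is not itself a phosphatase, is given apart.

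RNA from sorted cells was hybridised to 16 Affymetrix mouse arrays. The NKT group (3 arrays) was CD3+CD4+NK1.1+ and the CD4T group (3 arrays) CD3+CD4+NK1.1-, both sorted from the spleen of wild-type C57BL/6 mice. The CD8aaT group (3 arrays) was TCRb+CD8a+CD8b- and came from RTOC selected with a high dose of the agonist Smcy, and the CD8abT group (3 arrays) was TCRb+CD8a+CD8b+ and came from RTOC given a low dose of it, 100 nM. The label of the high dose reads 10 mM. The strain of the RTOC cells is not given in the labels, and agonist dose and population cannot be told apart in this pair. The B1 group (2 arrays) was IgM(hi)IgD(int)CD11b+ from the peritoneum and the B2 group (2 arrays) IgM(int)IgD(hi)CD11b- from the spleen, both of wild-type C57BL/6 mice, so that tissue and population cannot be told apart there. About 100000 cells were sorted for an array of the NKT, CD4T, B1 and B2 groups and about 50000 for one of the RTOC groups; ages are not given. The arrays of a group are called biological replicates, without saying that they came from separate animals or cultures, so the p-values measure the spread between these arrays. In bulk samples such as these, fewer cells of a type and less RNA per cell cannot be told apart.

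Protein phosphatases remove the phosphate groups that kinases add. In lymphocytes the receptor phosphatase CD45 (Ptprc) keeps Src-family kinases ready to signal, SHP-1 (Ptpn6) is brought in by inhibitory receptors to damp antigen-receptor signalling, and several dual-specificity phosphatases switch off MAP kinases and are themselves induced by MAP kinase signalling. Among the serine/threonine enzymes, calcineurin (Ppp3ca, Ppp3cb or Ppp3cc with Ppp3r1) responds to calcium and activates NFAT, while PP1 and PP2A take their targets from a large set of regulatory subunits.

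The upstream windows of 4 members are shown because their differences carry much of what follows: Dusp6 (an ERK phosphatase) and Dusp1 (a MAP kinase phosphatase) for the NKT pair, Ptpn6 for the B pair and Ppp1cb (a PP1 catalytic subunit) for the CD8 pair. Each run is the 250 bases before the RefSeq transcription start on the gene's own strand, from the GRCm38.p6 mouse build. Dusp6 is at chr10:99262981-99263230 (plus strand), Dusp1 at chr17:26508473-26508722 (minus strand), Ptpn6 at chr6:124738710-124738959 (minus strand) and Ppp1cb at chr5:32458720-32458969 (plus strand). Capitals mark matches, on either strand, to the letters TGACGTCA (the cyclic AMP response element, CRE), TGANTCA (the AP-1 element), GGGCGG (the GC box), CCAAT (the CCAAT box) or GGAAGT (an ETS-type site).
Dusp6: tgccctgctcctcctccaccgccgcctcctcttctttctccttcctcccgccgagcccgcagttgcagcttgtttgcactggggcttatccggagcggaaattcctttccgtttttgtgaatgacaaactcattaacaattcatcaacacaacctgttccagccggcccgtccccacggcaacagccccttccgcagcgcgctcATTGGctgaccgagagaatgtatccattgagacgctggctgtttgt
Dusp1: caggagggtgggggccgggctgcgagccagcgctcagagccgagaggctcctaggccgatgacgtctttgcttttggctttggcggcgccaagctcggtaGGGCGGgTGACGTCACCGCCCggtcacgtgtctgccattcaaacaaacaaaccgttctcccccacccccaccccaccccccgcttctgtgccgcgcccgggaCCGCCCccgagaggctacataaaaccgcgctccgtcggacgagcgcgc
Ptpn6: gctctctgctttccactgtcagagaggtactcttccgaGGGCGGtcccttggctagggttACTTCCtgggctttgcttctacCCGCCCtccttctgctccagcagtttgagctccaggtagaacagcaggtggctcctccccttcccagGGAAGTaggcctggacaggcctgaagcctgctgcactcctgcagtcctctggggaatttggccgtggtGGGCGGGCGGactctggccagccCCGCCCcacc
Ppp1cb: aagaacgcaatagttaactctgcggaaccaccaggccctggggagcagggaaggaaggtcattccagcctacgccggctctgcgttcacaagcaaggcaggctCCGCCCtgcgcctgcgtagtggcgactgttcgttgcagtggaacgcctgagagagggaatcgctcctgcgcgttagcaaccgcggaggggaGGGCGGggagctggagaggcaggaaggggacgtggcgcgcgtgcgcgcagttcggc
The Dusp6 window held 1 CCAAT box and none of the other 4 motifs. The Dusp1 window held 1 CRE, which abuts a GC box, and 3 GC boxes in all. The Ptpn6 window held 5 GC boxes, 2 of them overlapping, and 2 ETS-type matches, and the Ppp1cb window held 2 GC boxes. A window was at hand for 55 of the 71 members. These 55 genes had 73 windows, some with more than 1 start. A CRE lay in 7 of the 73 (9.59%, against 1.55% of 32851 windows of all genes): those of Dusp1, Dusp8, Ppp1r12c, Ppp1r15a, Ppp2ca, Ptpn11 and Ptpru. An AP-1 element lay in 1 of the 73 (1.37%, against 6.75% of all windows), that of Ptpre. GC boxes were in 64.4% of the members' windows, against 32.7% of all, CCAAT boxes in 28.8%, against 33.8%, and ETS-type matches in 28.8%, against 19.7%. The windows of all genes were neither limited to genes on the array nor matched to the members' windows in GC content. A match of letters does not show that a factor binds there.

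Intensities are linear values, and a difference is the log2 intensity of the innate-like group minus that of the adaptive group, with the standard error (SE) of the fit. A difference was called where its limma p-value, adjusted by the Benjamini-Hochberg method over all 12422 probe sets tested, was below 0.05. Array medians lay between 30.4 and 31.9 in the RTOC arrays, between 49.6 and 54.1 in the NKT and CD4T arrays and between 69.2 and 76.1 in the B1 and B2 arrays, so levels were tested only within a pair. Replicate 1 stood apart in the NKT and CD4T groups: replicates 2 and 3 differed from each other with an SD of 0.13 log2 units in NKT and 0.16 in CD4T cells, and from replicate 1 with an SD of 0.38 in NKT and of 0.56 and 0.63 in CD4T cells. Arrays of the same number deviated together within every pair, so results of the T-cell pairs are also given with the replicate number as a block where that changes a call. In the NKT pair replicates 2 and 3 also deviated together across numbers, so their pairing cannot be told from these data.

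No member was called in any of the 3 pairs. Of all probe sets, 1.63% were called in NKT against CD4T cells, 0.185% in CD8aaT against CD8abT cells and 1.14% in B1 against B2 cells. At an unadjusted p below 0.05, 11 members stood out in the NKT pair (15.5% of members, against 6.21% of all probe sets), 5 in the CD8 pair (7.04%, against 6.03%) and 5 in the B pair (7.04%, against 4.78%). The smallest adjusted p of a member was 0.056 in the NKT pair, 0.32 in the CD8 pair and 0.13 in the B pair. The median difference of the 71 members was 0.04 in the NKT pair, -0.03 in the CD8 pair and -0.06 in the B pair, beside -0.03, -0.05 and -0.05 for all probe sets in the same order of pairs.

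With the replicate number as a block, 6 members were called in the NKT pair, all higher in NKT cells: Dusp6, Ppp3ca, Ppp3cc, Ptpn9, Ptpre and Ptprv. That fit called 4.84% of all probe sets in this pair. In the CD8 pair 5 members were called, all higher in CD8aaT cells: Ppp1cb, Ppp2cb, Ppp3ca, Ptprc and Ptpre, where the same fit called 3.2% of all probe sets. Ppp3ca and Ptpre were in both sets.

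Values that did not overlap between the groups of a pair were found for 7 members higher in NKT cells (7.19% of all probe sets) and 5 lower in NKT cells (5.02% of all). Of the CD8 pair, 10 members were wholly higher in CD8aaT cells (5.76% of all) and 2 wholly lower (5.51% of all). Of the B pair, 8 members were wholly higher in B1 cells (12.2% of all) and 16 wholly lower (20.1% of all). Members past 0.5 log2 units in size numbered 6 in the NKT pair (8.45% of members, against 5.52% of all probe sets), 8 in the CD8 pair (11.3%, against 6.80%) and 8 in the B pair (11.3%, against 6.53%). These shares compare sets of unlike brightness. A group mean above the array median was found for 64.8% of members in the NKT pair and 60.6% in the CD8 and B pairs. The share of all probe sets was 51.9% in each pair.

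**Figure D1:**
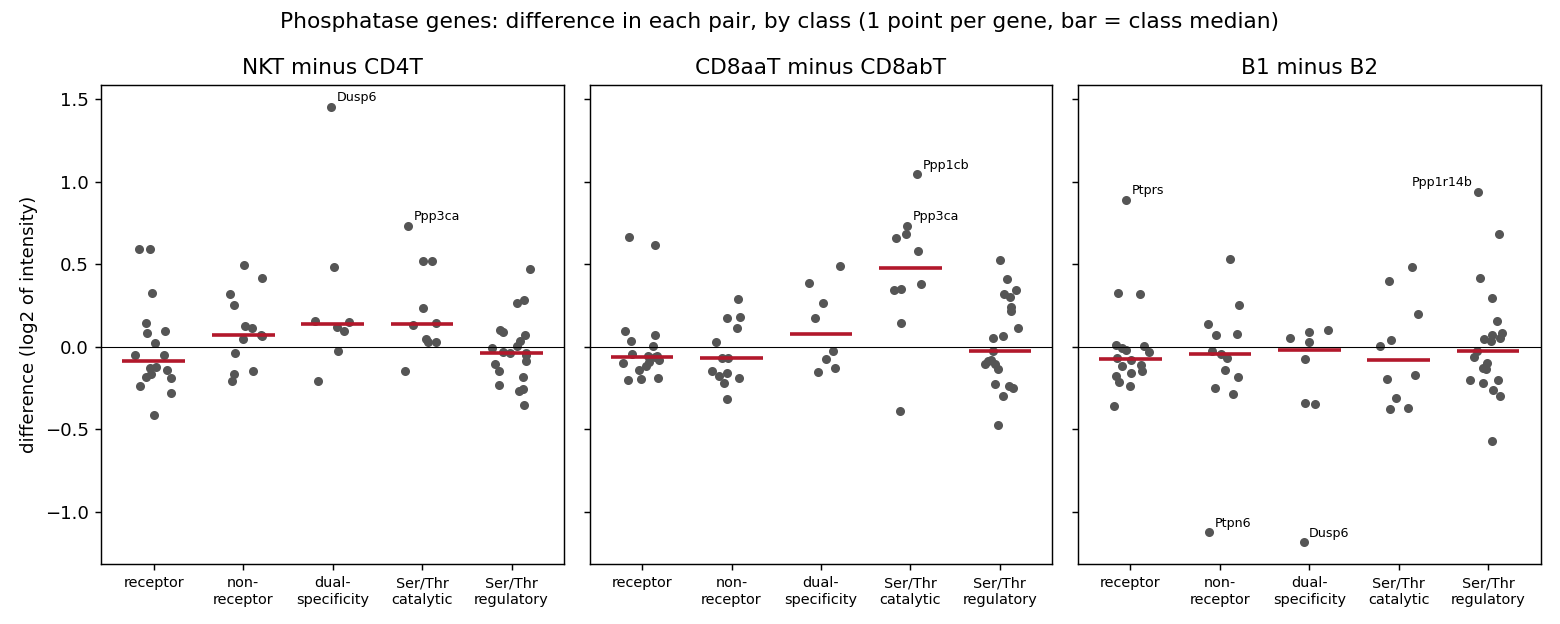
Difference in log2 intensity of each phosphatase gene (1 point per gene) in the 3 pairs, by class, with the class median as a bar. Dusp6 lies at 1.46 in the NKT pair and at -1.18 in the B pair, and the catalytic serine/threonine subunits of the CD8 pair have a median of 0.48.

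Among the receptor-type phosphatases, the 18 members had a median difference of -0.09 in the NKT pair, -0.06 in the CD8 pair and -0.07 in the B pair, and 13 of 18 lay below 0 in B1 against B2 cells. Ptprc, which encodes CD45, had an intensity of 729, 1321 and 1291 in NKT cells, against 695, 1766 and 1806 in CD4T cells. The 2 groups overlapped, and the difference of -0.28 ± 0.37 was not called (adjusted p = 1).

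In CD8aaT cells Ptprc read 943, 603 and 816, against 644, 368 and 546 in CD8abT cells. The groups overlapped, but each CD8aaT array was above the CD8abT array of its number, by 0.55, 0.71 and 0.58 log2 units for replicates 1, 2 and 3. The difference was 0.61 ± 0.37 (adjusted p = 0.89), and with the replicate block it was called (adjusted p = 0.028). Ptprc in the B pair read 924 and 1299.7 in B1 cells, against 1084 and 1816 in B2 cells, a difference of -0.36 ± 0.45 (adjusted p = 1). Of the 2 other Ptprc probe sets, 1 gave 0.05 ± 0.63 and the other -0.22 ± 0.14 in the CD8 pair.

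Ptpre, a receptor-type phosphatase that acts on Src-family kinases and voltage-gated potassium channels, lay above 0 in all 3 pairs. It read 197, 369.5 and 415 in NKT cells, against 115, 264 and 290.1 in CD4T cells. Replicate 1 was lowest in both groups, and within each number NKT cells were higher, by 0.78, 0.49 and 0.52 log2 units. The difference was 0.59 ± 0.40 (1.51-fold; adjusted p = 1), called with the block (adjusted p = 0.018).

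In CD8aaT cells Ptpre read 149, 132 and 81.3, against 114, 66.5 and 52.5 in CD8abT cells. The groups overlapped through CD8aaT replicate 3 and CD8abT replicate 1. The difference was 0.67 ± 0.40 (1.59-fold; adjusted p = 0.89), called with the block (adjusted p = 0.022). In B1 cells it read 246 and 342, against 189 and 283 in B2 cells, a difference of 0.33 ± 0.49 that was not called (adjusted p = 1).

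Ptprv, a receptor phosphatase known from bone-forming cells of the mouse, had the smallest p-value of the receptor class in the NKT pair. It read 87.3, 80.6 and 80.9 in NKT cells, against 62.1, 51.6 and 51.9 in CD4T cells. All 3 NKT arrays were above all 3 CD4T arrays. The difference was 0.59 ± 0.14 (1.51-fold) with an adjusted p of 0.056, and 0.012 with the block. A second probe set of Ptprv gave 0.57 ± 0.13 and was called (adjusted p = 0.039), while the remaining one gave 0.32 ± 0.24 (adjusted p = 1). The difference of Ptprv was 0.04 ± 0.14 in the CD8 pair and -0.07 ± 0.17 in the B pair.

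Ptprs, a receptor for sulfated proteoglycans in neurons, differed most of this class in the B pair. It read 135 and 195 in B1 cells, against 77.5 and 98.8 in B2 cells. Both B1 arrays were above both B2 arrays. The difference was 0.89 ± 0.25 (1.86-fold; 95% interval 0.36 to 1.42) and was not called (adjusted p = 0.16). Ptprs differed by 0.10 ± 0.20 in the NKT pair and 0.07 ± 0.20 in the CD8 pair.

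Ptpra, an activator of Src-family kinases, read 77.8, 73.2 and 69.6 in NKT cells, against 99.4, 85.7 and 110.1 in CD4T cells. Every NKT array was below every CD4T array. The difference of -0.41 ± 0.16 was not called (adjusted p = 0.53). Ptprj, which encodes CD148, differed by 0.14 ± 0.17 in the NKT pair, 0.09 ± 0.17 in the CD8 pair and 0.32 ± 0.21 in the B pair, with no call. The receptor phosphatases known mainly from neurons and endocrine cells or from endothelium (Ptprb, Ptprd, Ptprn, Ptprn2, Ptprr and Ptprz1) gave differences between -0.21 and 0.08 in all 3 pairs.

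Ptprcap read 1185, 706 and 735 in NKT cells, against 1003, 518 and 539 in CD4T cells, with overlap and a difference of 0.38 ± 0.33 (adjusted p = 1). In CD8aaT cells it read 549.7, 702 and 596, against 509, 957 and 1032 in CD8abT cells, a difference of -0.38 ± 0.33 (adjusted p = 0.9). Ptprcap read 592 and 351 in B1 cells, against 1263 and 799 in B2 cells. Both B1 arrays were below both B2 arrays there, with a difference of -1.14 ± 0.41 (2.20-fold lower; adjusted p = 0.53). Without the replicate 1 arrays of every group Ptprcap was called as lower in CD8aaT cells (-0.62 ± 0.11, adjusted p = 0.05 as rounded), where 190 of the 12422 probe sets were called. The B pair then holds 1 B1 and 1 B2 array, whose difference was -1.19; its call (adjusted p = 0.013) takes the spread from the T-cell groups and has no replicate check in B cells.

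Of the 13 non-receptor phosphatases, Ptpn6 differed most in the B pair. Its intensity was 244 and 281 in B1 cells, against 545 and 596 in B2 cells. Both B1 arrays were far below both B2 arrays, and the 2 replicate numbers gave differences of -1.16 and -1.09. The difference was -1.12 ± 0.30 (2.18-fold lower; 95% interval -1.76 to -0.49), with an adjusted p of 0.13 and so no call. Quantile normalization over all arrays (-1.19 ± 0.26, adjusted p = 0.041), an offset of 32 added before taking logs (-1.04 ± 0.23, adjusted p = 0.042) and leaving out CD8abT replicate 3 (adjusted p = 0.036) each brought it past the threshold. The fit with the replicate number as a block did so too (-1.12 ± 0.14, adjusted p = 0.001). The B numbers were not taken to pair, however. Without CD8abT replicate 3 the difference stayed at -1.12 and only the shared spread changed. It was not called with median centring, the arrays of the pair alone, a filter on dim probe sets, or a trended and robust prior.

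In the T-cell pairs the Ptpn6 levels lay close together. NKT cells read 144, 160.1 and 167, against 131, 149 and 174 in CD4T cells, and the difference was 0.06 ± 0.24 (95% interval -0.45 to 0.58). CD8aaT cells read 62.9, 99.1 and 110.1, against 68.7, 83.9 and 137 in CD8abT cells, a difference of -0.07 ± 0.24 (95% interval -0.59 to 0.45). The NKT pair's difference exceeded that of the B pair by 1.19 ± 0.38, which was not called (adjusted p = 0.27), as was that of the CD8 pair by 1.06 ± 0.38 (adjusted p = 0.71).

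Ptpn2, a phosphatase of JAK kinases and STATs, read 185, 217 and 208 in NKT cells, against 130.1, 155 and 175 in CD4T cells, without overlap. Its difference was 0.42 ± 0.14 (1.33-fold; adjusted p = 0.34). It lay above 0 in the other pairs too, at 0.18 ± 0.14 in CD8aaT against CD8abT cells and 0.26 ± 0.18 in B1 against B2 cells. The average over the 3 pairs, 0.28 ± 0.09, had the smallest adjusted p of any member in that contrast, 0.22.

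Ptpn9, a phosphatase of secretory vesicles, read 239, 355 and 335 in NKT cells, against 197, 231 and 221 in CD4T cells. The lowest NKT array was just above the highest CD4T array. The difference was 0.50 ± 0.21 (adjusted p = 0.67), called with the block (adjusted p = 0.019).

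Ptpn1 (PTP1B), a phosphatase of insulin and cytokine receptors, read 1889 and 1062 in B1 cells, against 1079 and 886 in B2 cells, where the groups overlapped and the difference of 0.54 ± 0.37 was not called (adjusted p = 1). The 2 non-receptor members with the largest differences in the CD8 pair were Ptpn23, an endosomal protein, and Ptpn13. Ptpn23 read 46.8, 39.4 and 37.7 in CD8aaT cells, against 49.4, 53.4 and 51.1 in CD8abT cells (-0.32 ± 0.16, adjusted p = 0.86). Ptpn13 read 34.8, 31.2 and 38.7 in CD8aaT cells, against 30.7, 24.5 and 30.7 in CD8abT cells (0.29 ± 0.18, adjusted p = 0.89). Both were without overlap, in opposite directions.

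Ptpn11, which encodes SHP-2, was dim, with 7.75 to 22.2 over all arrays, and its differences lay between -0.07 and 0.07 in the 3 pairs. Ptpn12 (PTP-PEST) also stayed between -0.03 and 0.12.

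**Figure D2:**
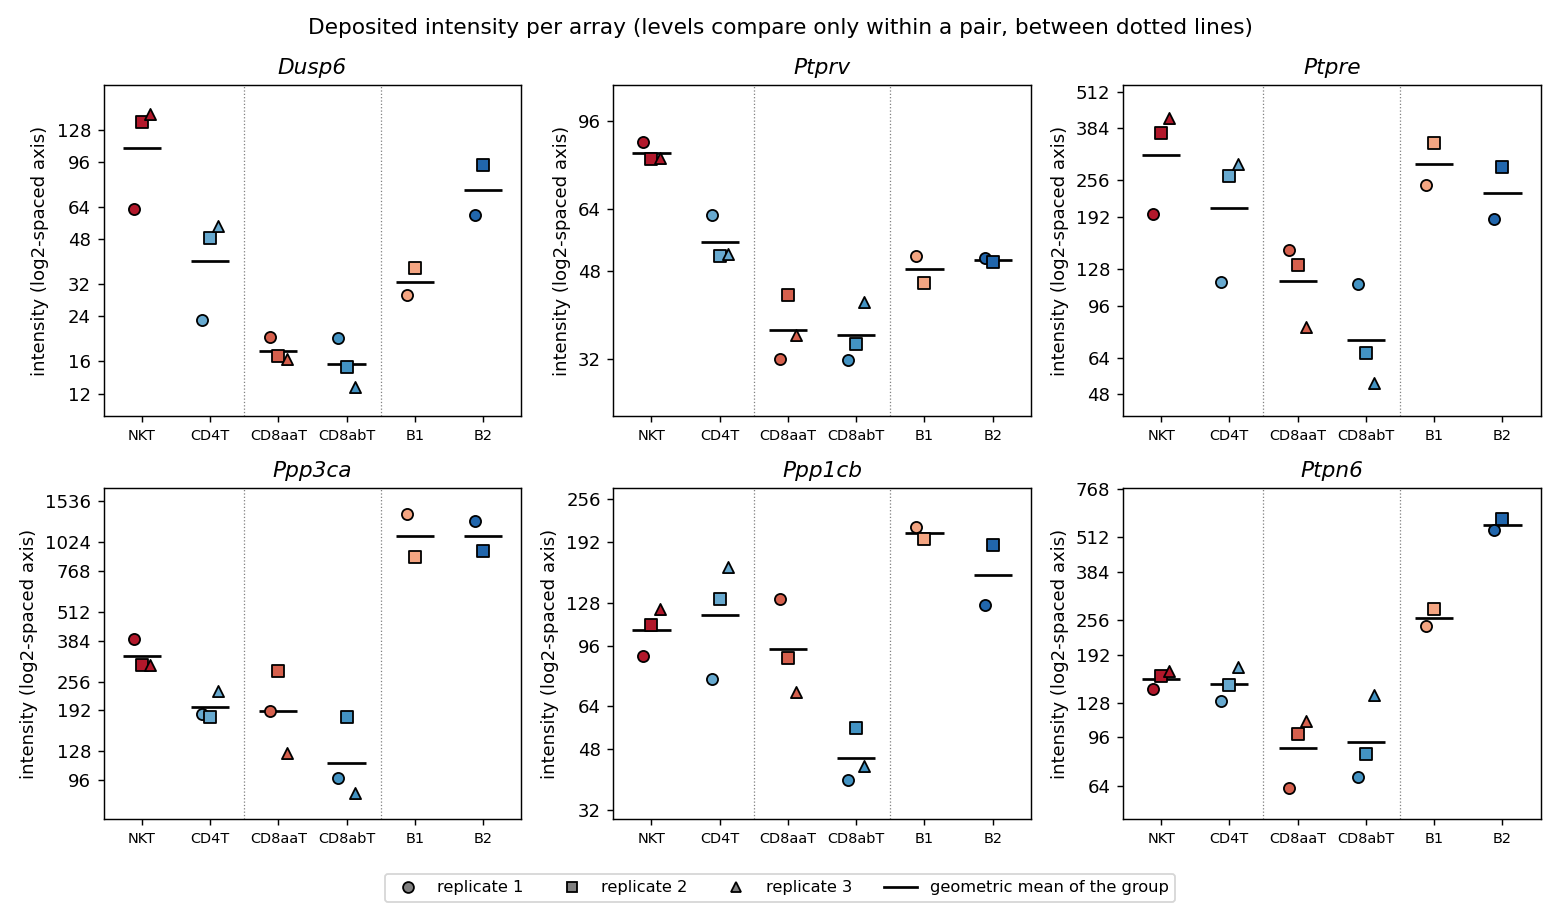
Deposited intensity (log2-spaced axis) of 6 members on every array, with the geometric mean of each group as a bar and a symbol per replicate number. In Dusp6 all NKT arrays lie above all CD4T arrays and both B1 arrays lie below both B2 arrays, and in Ptpn6 the B1 arrays (244 and 281) lie below the B2 arrays (545 and 596).

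The dual-specificity class held the largest single difference of the NKT pair. Dusp6, the cytoplasmic ERK phosphatase whose upstream window is printed above, read 62.8, 137 and 147 in NKT cells, against 23.3, 48.6 and 54.1 in CD4T cells. The lowest NKT array was above the highest CD4T array. Replicate 1 was the lowest array of both groups. Taken by number, the differences were 1.43, 1.49 and 1.44, though the match of replicates 2 and 3 cannot be told from these data. The fitted difference was 1.46 ± 0.35 (2.74-fold; 95% interval 0.71 to 2.20), with an adjusted p of 0.056 and, with the block, of 1.3e-05.

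The B pair had Dusp6 on the opposite side of 0. It read 29.1 and 36.8 in B1 cells, against 59.4 and 93.2 in B2 cells, with both B1 arrays below both B2 arrays. The difference was -1.18 ± 0.43 (2.27-fold lower; adjusted p = 0.54) and was not called. Dusp6 in the CD8 pair read 20, 16.8 and 16.3 in CD8aaT cells, against 19.7, 15.2 and 12.7 in CD8abT cells, with overlap and a difference of 0.18 ± 0.35 (95% interval -0.57 to 0.92).

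The test of the difference between pairs, without the block, called Dusp6 and no other member. The NKT pair's difference exceeded the B pair's by 2.64 ± 0.55 (adjusted p = 0.026), a contrast in which 1.35% of all probe sets were called. The NKT pair against the CD8 pair gave 1.28 ± 0.49 for Dusp6 (adjusted p = 0.7), where 0.692% of all probe sets and no member were called, at 5 members with an unadjusted p below 0.05 (7.04%, against 5.05% of all probe sets). With the block, Dusp6 (adjusted p = 0.0011) and Ptprc (-0.89 ± 0.17, adjusted p = 0.019) were called in that contrast, where the fit called 3.02% of all probe sets. The CD8 pair against the B pair gave 1.36 ± 0.55 (adjusted p = 0.92), where 0.733% of all probe sets and no member were called, at 4 members with an unadjusted p below 0.05 (5.63%, against 4.11% of all).

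Dusp6 had a second, dimmer probe set that did not show this pattern, with -0.05 ± 0.19 in the NKT pair and -0.12 ± 0.23 in the B pair. The brighter probe set was itself dim outside NKT cells. Its group means there lay below the array median, from -1.14 in B1 to -0.01 in B2 cells. With an offset of 32 added before taking logs, the difference between the NKT and B pairs was 1.69 ± 0.36 (adjusted p = 0.033). With the mean of both probe sets the difference between the NKT and B pairs was 1.36 and no longer called (adjusted p = 0.072). It was also not called without NKT replicate 2 (adjusted p = 0.077), NKT replicate 3 (0.075), B1 replicate 1 (0.11), B1 replicate 2 (0.081) or B2 replicate 2 (0.18), where it lay between 2.31 and 2.81. Leaving out a B array leaves 1 array in that group, which is taken to vary like the other groups.

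Dusp1, the MAP kinase phosphatase of the nucleus, read 75.5, 125 and 140.4 in NKT cells, against 77.2, 80.7 and 77.8 in CD4T cells. Replicates 2 and 3 of NKT cells were higher than every CD4T array and NKT replicate 1 was lower than every one. The difference was 0.48 ± 0.19 (adjusted p = 0.51). Without NKT replicate 1 it was 0.75 ± 0.14 and was called (adjusted p = 0.014). Dusp1 in the B pair read 36.3 and 31.2 in B1 cells, against 39.0 and 47.1 in B2 cells (-0.35 ± 0.23, adjusted p = 1), and in the CD8 pair the difference was -0.08 ± 0.19.

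Dusp12 read 69.0, 101 and 65.7 in CD8aaT cells, against 59.7, 60.4 and 45.9 in CD8abT cells (0.49 ± 0.24, adjusted p = 0.85). Dusp16, a phosphatase of JNK and p38 kinases, read 17.6, 20.4 and 16 in CD8aaT cells, against 12.9, 15.3 and 13.0 in CD8abT cells (0.39 ± 0.28, adjusted p = 0.9). Neither overlapped with its counterpart and neither was called. Dusp16 was dim there, with every value below the median of its array. Its other, still dimmer probe set gave -0.15 ± 0.13 in the CD8 pair. Dusp8 and Dusp9 gave differences between -0.21 and 0.09 in the 3 pairs.

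The 10 catalytic subunits of the serine/threonine phosphatases had the largest median difference of the 5 classes, in the CD8 pair. In CD8aaT against CD8abT cells 9 of 10 lay above 0, with a median of 0.48, where 39.2% of all probe sets lay above 0. None was called, 5 were wholly higher (50%, against 5.76% of all probe sets) and 4 had an unadjusted p below 0.05 (40%, against 6.03% of all). The sets differ in brightness: 80% of the 10 had a group mean above the array median in this pair, against 51.9% of all probe sets. In the NKT pair 9 of 10 lay above 0 with a median of 0.14 (43.1% of all probe sets above 0), and in the B pair 5 of 10 with a median of -0.08 (37.2% of all). The 21 regulatory members had medians of -0.04 in the NKT pair, -0.03 in the CD8 pair and -0.03 in the B pair.

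Ppp1cb, a catalytic subunit of PP1, had the largest difference of the CD8 pair. It read 131, 88.6 and 70.6 in CD8aaT cells, against 39.0, 55.5 and 43.0 in CD8abT cells. Every CD8aaT array was above every CD8abT array. The difference was 1.05 ± 0.28 (2.07-fold; adjusted p = 0.32), called with the block (adjusted p = 0.031). It was carried most by replicate 1, at 1.75 log2 units, with 0.67 and 0.72 for replicates 2 and 3. In NKT against CD4T cells the difference was -0.15 ± 0.28 and in B1 against B2 cells 0.40 ± 0.34.

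Ppp1cc, another PP1 catalytic subunit, read 366, 387 and 363 in CD8aaT cells, against 262, 297 and 160.0 in CD8abT cells, without overlap (0.68 ± 0.60, adjusted p = 0.9). The catalytic subunits of PP2A read higher in every CD8aaT array than in any CD8abT array. Ppp2cb read 172, 215 and 207 in CD8aaT cells, against 105, 154 and 120.5 in CD8abT cells (0.66 ± 0.24, adjusted p = 0.68, and 0.043 with the block). Ppp2ca read 101, 90.8 and 89.6 in CD8aaT cells, against 83.4, 71.9 and 67.2 in CD8abT cells (0.34 ± 0.34, adjusted p = 0.91). Ppp2cb in the B pair read 380.0 and 461 in B1 cells, against 305 and 293 in B2 cells (0.48 ± 0.30, adjusted p = 1), while Ppp2ca differed by -0.20 ± 0.42.

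The calcineurin genes lay above 0 in the CD8 pair in all 4 cases, with a median of 0.55. Ppp3ca, the calcineurin A alpha subunit, read 391, 303 and 301 in NKT cells, against 185, 179.9 and 233 in CD4T cells. All NKT arrays were above all CD4T arrays, and the difference was 0.73 ± 0.31 (1.66-fold; adjusted p = 0.65), called with the block (adjusted p = 0.0095). Its difference in the CD8 pair was of the same size. There Ppp3ca read 191, 286 and 126 in CD8aaT cells, against 98.3, 179 and 84.5 in CD8abT cells.

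The CD8 groups overlapped for Ppp3ca, but each CD8aaT array was above the CD8abT array of its number, by 0.96, 0.67 and 0.58 log2 units. The difference was 0.73 ± 0.31 (1.66-fold; adjusted p = 0.78), called with the block (adjusted p = 0.023). Ppp3ca in the B pair read 1351 and 883 in B1 cells, against 1259 and 937 in B2 cells, a difference of 0.01 ± 0.38 with a 95% interval of -0.81 to 0.82.

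Ppp3cc, the calcineurin A gamma subunit, read 129, 162 and 141 in NKT cells, against 93.2, 107 and 101 in CD4T cells, without overlap. Its difference was 0.52 ± 0.19 (1.43-fold; adjusted p = 0.4), called with the block (adjusted p = 0.027). In the CD8 pair it was 0.38 ± 0.19 (adjusted p = 0.86) and in the B pair 0.04 ± 0.23. Ppp3cb, the A beta subunit, read 22.2, 16.1 and 18.8 in CD8aaT cells, against 12.1, 12.5 and 13.3 in CD8abT cells, without overlap (0.58 ± 0.23, adjusted p = 0.72), and differed by 0.03 ± 0.23 in the NKT pair. It was dim in the CD8 pair, with every value below the median of its array.

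Ppp3r1, the regulatory subunit calcineurin B, followed the replicate number more than the group. It read 112, 377 and 364 in NKT cells, against 138, 396 and 452 in CD4T cells (-0.23 ± 0.58, adjusted p = 1), so that replicate 1 was far below the others in both groups. In the CD8 pair it differed by 0.53 ± 0.58 and in the B pair by 0.05 ± 0.71.

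Ppp5c, which works with the chaperone Hsp90, was the 1 catalytic subunit below 0 in the CD8 pair, at -0.39 ± 0.22 (adjusted p = 0.89). It read 54.3, 57.7 and 60.9 in NKT cells, against 46.4, 33.4 and 41.6 in CD4T cells. The NKT arrays were all above the CD4T arrays (0.52 ± 0.22, adjusted p = 0.63). In the B pair it was at -0.31 ± 0.27. Ppp4c and Ppp6c differed by 0.03 ± 0.23 and 0.04 ± 0.22 in the NKT pair, by 0.14 ± 0.23 and 0.35 ± 0.22 in the CD8 pair, and by -0.37 ± 0.28 and 0.20 ± 0.27 in the B pair, with no call.

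**Figure D3:**
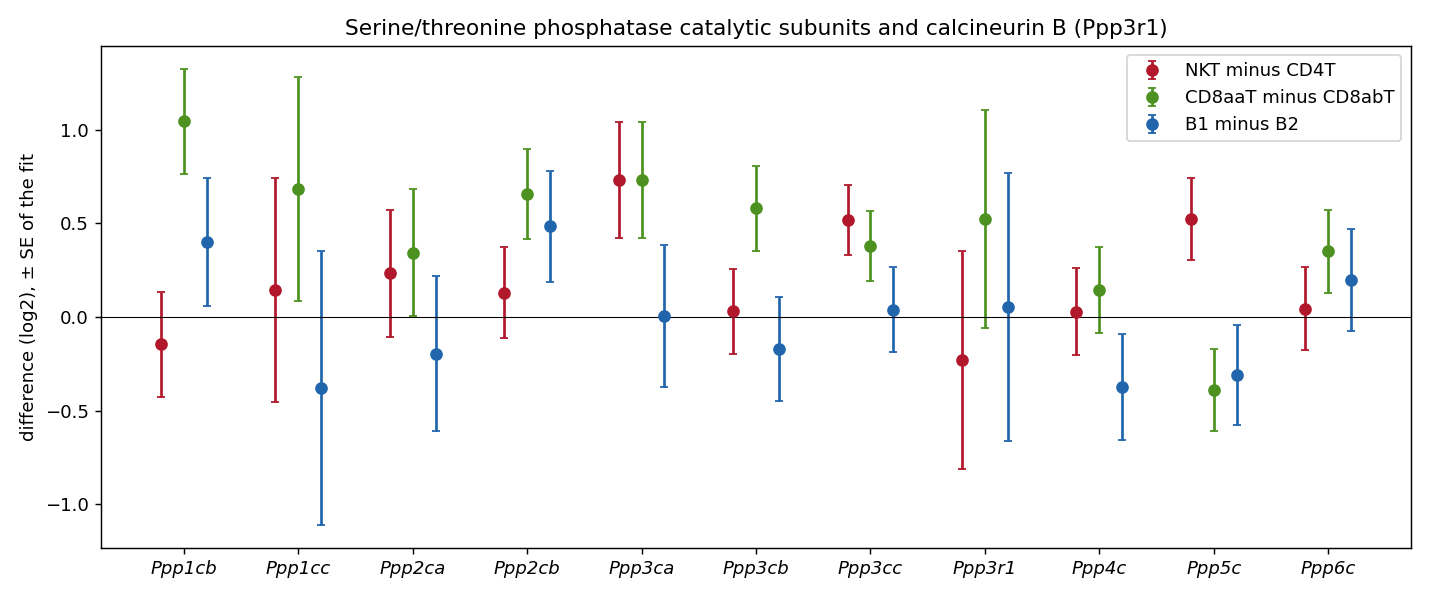
Difference in log2 intensity (points) with the SE of the fit (bars) for the 10 catalytic subunits and Ppp3r1 in the 3 pairs. In the CD8 pair 9 of the 10 catalytic subunits lie above 0, with Ppp1cb at 1.05 and Ppp5c at -0.39.

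Signs of RNA quality moved with the CD8 pair. The 3'/5' signal ratio of actin was 5.80, 5.76 and 5.15 in CD8aaT arrays, against 6.57, 11.6 and 7.92 in CD8abT arrays, without overlap. The Gapdh ratio was 20.9, 17.6 and 7.37 in CD8aaT arrays, against 24.0, 30.4 and 9.47 in CD8abT arrays. The 18S 5' signal was 66.5, 273 and 249 in CD8aaT arrays, against 129, 857 and 716 in CD8abT arrays, higher in CD8abT at every number. The part of this in the catalytic subunits' shift was not tested. Signs also marked replicate 1 elsewhere. The actin ratio of NKT cells was 5.34 in replicate 1, against 3.56 and 3.72 in replicates 2 and 3. That of CD4T cells was 7.02, against 3.59 and 3.71. In the B pair it did not follow the number (4.86 and 5.04 in B1, 5.31 and 4.19 in B2 cells). The 18S 5' signal in replicate 1 was 675 in NKT, 1326 in CD4T, 776 in B1 and 877 in B2 cells. It was 33.4 to 62.6 in their other replicates. The part of these in the differences was not tested.

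Among the regulatory genes, the largest differences were in the B pair. Ppp1r14b, an inhibitor of PP1, read 297 and 219 in B1 cells, against 166 and 107 in B2 cells. Both B1 arrays were above both B2 arrays. The difference was 0.94 ± 0.33 (1.92-fold; adjusted p = 0.51) and was not called. The differences were 0.07 ± 0.27 in the NKT pair and -0.30 ± 0.27 in the CD8 pair.

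Ppp1r21, an endosomal protein, read 506 and 589.9 in B1 cells, against 311 and 372 in B2 cells, also without overlap (0.68 ± 0.32, adjusted p = 1). Ppp1r18, which binds actin, read 949 and 1410.2 in B1 cells, against 1287 and 2288 in B2 cells, with overlap (-0.57 ± 0.37, adjusted p = 1). Ppp2r5a, a targeting subunit of PP2A, read 675, 675 and 752 in NKT cells, against 806, 867 and 1017 in CD4T cells. It was wholly lower in NKT cells (-0.35 ± 0.14, adjusted p = 0.57), and lay below 0 in the CD8 pair (-0.09 ± 0.14) and the B pair (-0.22 ± 0.17) as well.

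The scaffold of PP2A, Ppp2r1a, differed by 0.27 ± 0.25 in the NKT pair, -0.03 ± 0.25 in the CD8 pair and 0.07 ± 0.31 in the B pair. Ppp1r15a (GADD34), a stress-induced partner of PP1 that acts on the translation factor eIF2 alpha, differed by -0.10 ± 0.21, -0.10 ± 0.21 and -0.20 ± 0.25 in the same order of pairs.

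Over all 3 pairs, 12 members lay above 0 each time (16.9%, against 10.6% of all probe sets) and 16 lay below 0 each time (22.5%, against 27.2% of all). The 12 were Dusp19, Ppp1r15b, Ppp1r21, Ppp1r7, Ppp2cb, Ppp3ca, Ppp3cc, Ppp6c, Ptpn2, Ptpre, Ptprj and Ptprs. No member was free of overlap in the same direction in all 3 pairs, against 0.39% of all probe sets. In the test of the average of the 3 pairs no member was called, where 1.61% of all probe sets were, and 10 members had an unadjusted p below 0.05 (14.1%, against 7.89% of all). Ppp3ca averaged 0.49 ± 0.19 (adjusted p = 0.46) and Ppp2cb 0.42 ± 0.15 (adjusted p = 0.35).

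Levels over the 6 groups, as mean log2 intensity minus the array median with the SD over arrays, are a description. The array medians fall into 3 levels, 1 for each pair, and whether RMA was run on all arrays together or on each pair apart is not given in the sources used here. A separate normalization of the pairs and a difference between lineages therefore cannot be told apart in these levels. Dusp6 stood at 1.08 ± 0.73 in NKT, -0.01 ± 0.49 in B2, -0.39 ± 0.73 in CD4T, -0.81 ± 0.18 in CD8aaT, -1.0 ± 0.34 in CD8abT and -1.14 ± 0.33 in B1 cells. NKT cells headed the order, and each group's range of 1 SD overlapped that of its neighbour. Dusp1 stood at 1.10 ± 0.53 in NKT and 0.61 ± 0.08 in CD4T cells, and between -1.10 and -0.81 in the other 4 groups.

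On this scale some members stood further apart between the B-cell and T-cell arrays than between the 2 sides of a pair. Ptpn13 stood at 0.67 ± 0.38 in NKT, 0.41 ± 0.10 in CD4T, 0.17 ± 0.13 in CD8aaT and -0.13 ± 0.18 in CD8abT cells, and at -1.60 ± 0.05 in B1 and -1.40 ± 0.03 in B2 cells. Ptprj ran the other way, at 0.39 ± 0.33 in B1 and 0.02 ± 0.20 in B2 cells and between -1.36 and -1.20 in the T-cell groups. Dusp16 was at 0.12 ± 0.72 in B1 and 0.41 ± 0.88 in B2 cells and between -1.35 and -0.79 in the T-cell groups. A second, dimmer probe set of Dusp16 did not show this, at -1.42 in B1, -1.46 in B2 and between -1.76 and -1.43 in T-cell groups. Ptpn6 was highest in B2 cells, at 2.93 ± 0.12, and stood between 1.51 and 1.85 in the other 5 groups. Of the 71 members, 49 had a mean above the array median in at least 1 group.

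**Figure D4:**
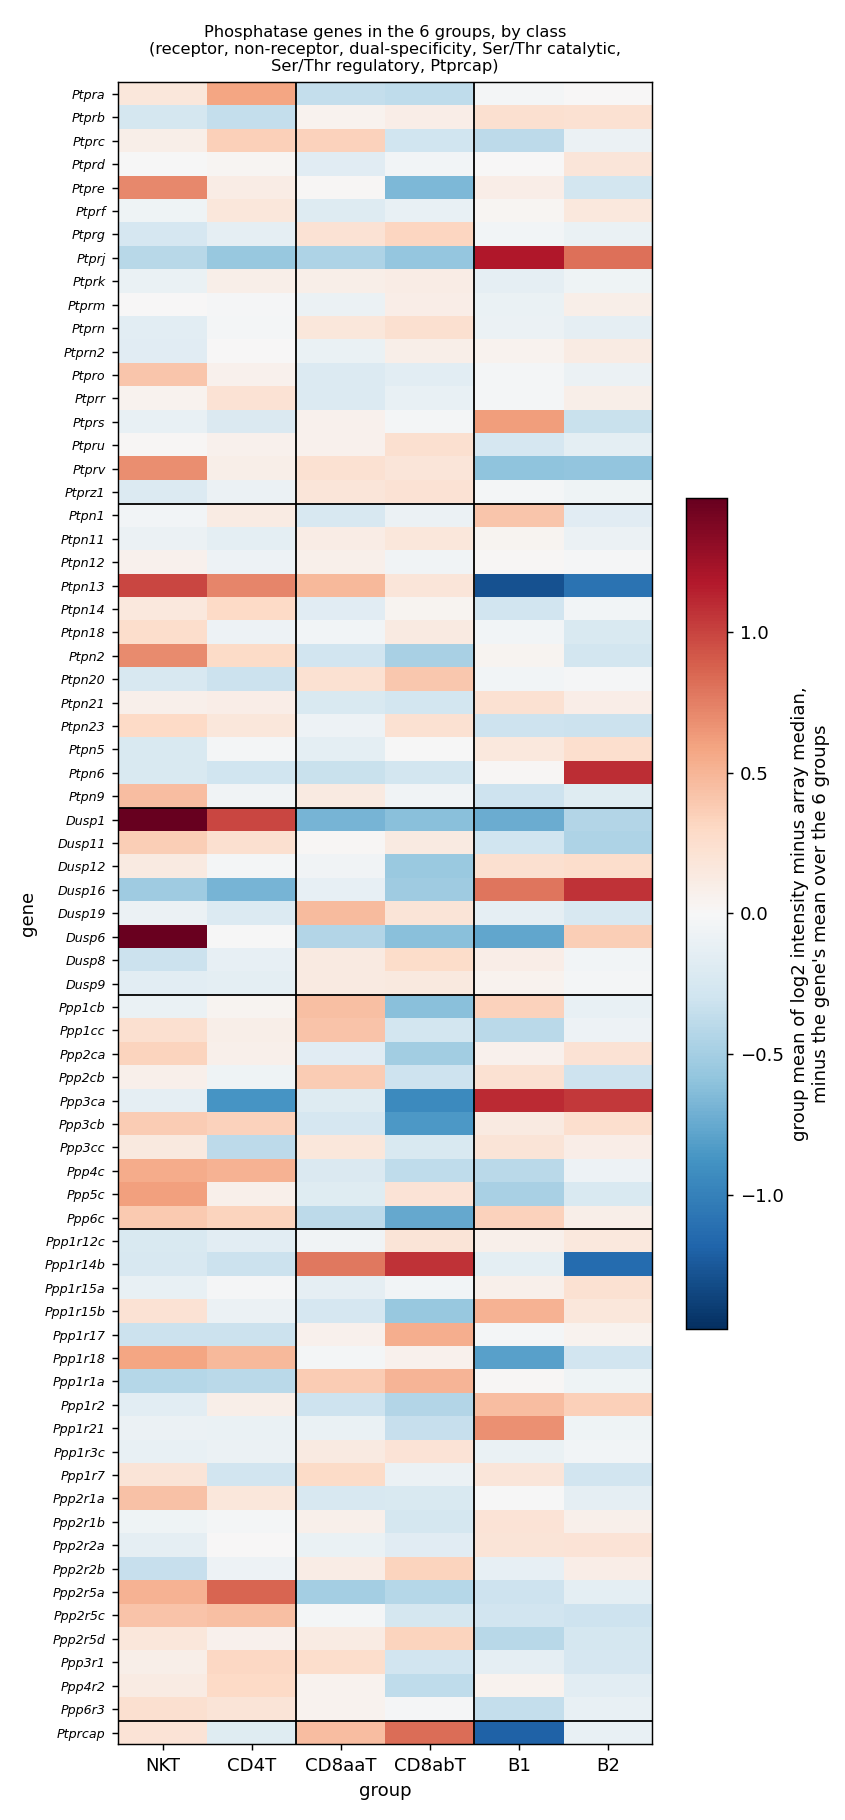
Heat map of group mean log2 intensity minus the array median, centred on each gene's mean over the 6 groups (colour, log2 units), for the 71 members in rows by class. Ptpn13 is lower and Ptprj higher in both B-cell groups than in the 4 T-cell groups, and Ptpn6 is highest in B2 cells.

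Genes that act beside these phosphatases were read from 4 lists. Of 16 measured antigen-receptor-proximal kinases and adaptors, 1 was called in the NKT pair, Cd72, a B-cell inhibitory receptor that recruits SHP-1, at 1.90 ± 0.38 (adjusted p = 0.016). In the B pair 2 were called, both lower in B1 cells: Cd72 at -4.05 ± 0.46 (adjusted p = 0.00024) and Cd22, another receptor that recruits SHP-1, at -0.87 ± 0.17 (adjusted p = 0.016). With the block, the T-cell kinase Zap70 (0.64 ± 0.20, adjusted p = 0.24 without and 0.0041 with it) was also called as higher in NKT cells, and Cd247, the zeta chain of the T-cell receptor complex, as lower (-0.69 ± 0.28, adjusted p = 0.57 without and 0.0046 with it). Of 21 measured genes of the MAP kinase cascade none was called in any pair, with medians of -0.02 in the NKT pair, -0.02 in the CD8 pair and -0.0034 in the B pair. With the block 1 of them was called, Map3k8, a kinase that activates the ERK pathway, as higher in NKT cells (0.52 ± 0.13, adjusted p = 0.078 without and 0.035 with it). Map3k8 was dim, with a mean below the array median in both groups, and the block called 4.84% of all probe sets in this pair. Of 16 measured genes of the calcineurin and NFAT pathway, Rcan3, a calcineurin regulator, was called as lower in NKT cells (-1.72 ± 0.23, adjusted p = 0.00069) and none in the other pairs. Of 31 measured phosphatase genes outside the symbol rule, Eya2 (0.97 ± 0.18, adjusted p = 0.0081) and Inppl1, the lipid phosphatase SHIP2 (0.53 ± 0.11, adjusted p = 0.027), were called as higher in NKT cells, and none in the other pairs. Inpp5d, the lipid phosphatase SHIP1, was called as higher in NKT cells with the block (0.75 ± 0.42, adjusted p = 1 without and 0.0095 with it).

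Levels of cell type markers also differed within the pairs. Of 13 measured macrophage and monocyte markers, 3 were called as higher in NKT cells (Lyz2, Csf1r and Mpeg1), with a summed intensity of 838 to 1033 in NKT cells, against 577 to 817 in CD4T cells. In the B pair 2 were called as higher in B1 cells (Lyz2 and Mpeg1), with a sum of 1491 to 1730.1 in B1 cells, against 1039 to 1069 in B2 cells. In the CD8 pair 11 of the 13 lay below 0 and none was called. Their sum was 363 to 373 in CD8aaT cells, against 393 to 427 in CD8abT cells, without overlap. With the block Lyz2 was called as lower (adjusted p = 0.049). Signals were low in this pair: 8 of the 13, Lyz2 among them, had means below the array median in both CD8 groups. Of 11 B-cell markers, Cd72 was called as higher in NKT cells, and the sum was 1361 to 2187 in NKT cells, against 1085 to 1753 in CD4T cells. In the B pair 4 of the 11 were called as lower in B1 cells (Cd22, Cd72, Fcer2a and Cr2) and 2 lay above 0. Of these, Cr2 was dim, with a mean below the array median in both B groups. The B-cell sum there was 15960 to 16097 in B1 cells, against 18364 to 18626 in B2 cells, without overlap. Of 10 measured T-cell markers, 4 lay above 0 in the NKT pair and none was called, with a median of -0.03. With the block Cd5 (-0.95) and Cd247 (-0.69) were called as lower in NKT cells. All 10 lay below 0 in CD8aaT against CD8abT cells, with a median of -0.33. Their sum was 2041 to 3936 in CD8aaT cells, against 2600.5 to 5441 in CD8abT cells. None of them was called, and with the block Cd2 (-1.22), Cd5 (-0.92), Cd6 (-0.66) and Thy1 (-0.91) were. In the B pair the T-cell sum was 2590.3 to 3011 in B1 cells, against 1338 to 1899 in B2 cells, but only Cd2 (1.25 ± 0.29, adjusted p = 0.064) and Cd5 (0.36 ± 0.45, adjusted p = 1) of the 10 lay above 0, and the median was -0.08. The part of these markers in the differences of Dusp6, Ptprv, Ptpn6, Ptprs and the catalytic subunits was not tested.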

How the data were processed

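The intensities were deposited by the authors as linear values made with RMA, per the submitters' processing notes; neither its version nor its settings were given in the sources used here. The log2 of each deposited intensity was taken with no further normalization. Of 12488 probe sets, 66 controls were left out and 12422 tested; 10833 had 1 symbol, 396 several and 1193 were not listed in the annotation. All 71 members matched a RefSeq gene by Entrez number, with no symbol changed.

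Group means of all 16 arrays were fitted with limma 3.58.1 (lmFit and eBayes) in R 4.3.3, which share 1 estimate of spread per probe set, and p-values were adjusted by the Benjamini-Hochberg method over all probe sets of a contrast (threshold 0.05). Contrasts were the 3 pairs, their average and the differences between pairs. No count of molecules lies behind an intensity, and precision is limited by how many arrays each group has. The fit was tested on simulated data whose noise was independent between arrays. That test therefore does not bear on the deviations that same-numbered arrays share, nor on the choice between the fits with and without the block. Figures were drawn with matplotlib 3.10.9 in Python 3.11.15.

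Same-numbered arrays deviated together from their group means (r over all probe sets 0.76, 0.65 and 0.67 in the NKT pair, 0.64, 0.60 and 0.66 in the CD8 pair). In the NKT pair r was also 0.57 for NKT replicate 2 with CD4T replicate 3, and 0.67 for NKT replicate 3 with CD4T replicate 2. These values set replicate 1 apart but do not tell which arrays of replicates 2 and 3 belong together. Arrays of unlike number in the CD8 pair gave r from -0.49 to -0.06. The labels give only the numbers. The pairing of the CD8 arrays and of replicate 1 in the NKT pair is taken from these correlations. Replicates 2 and 3 of the NKT pair were matched by number alone, so the block calls there rest on that choice. With 2 arrays a group (r = 0.69) the B numbers were not taken to pair.

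The text names, for each pair, called members, the 2 members of each class with the largest difference, and members with well-known roles in lymphocytes; members called in the average or a difference between pairs; and called genes of the lists. Other members were named after their values were seen. The members and lists were chosen with earlier results of these data known. Alternatives were the replicate block, the arrays of a pair alone, median centring, quantile normalization, an offset of 32, a filter on dim probe sets, a trended and robust prior, the mean of a gene's probe sets, and arrays left out. Sequences are from RefSeq.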

Additional observations from a re-analysis of the deposited data

Results flagged for a closer look

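The mean of Dusp6 lay below the array median in every group but NKT. It was singled out because its difference between innate-like and adaptive cells was not the same in 2 pairs. It was 1.46 ± 0.35 log2 units in NKT against CD4T cells and -1.18 ± 0.43 in B1 against B2 cells, and the test of the difference between the pairs gave 2.64 ± 0.55 (limma, adjusted p = 0.026), with no overlap between the groups in either pair. With 1 array left out in turn it lay between 2.26 and 3.03, with adjusted p-values from 0.0044 to 0.18, and the call was lost in 5 of 16 cases; without a B array, its group holds 1 array, taken to vary like the others.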

How the results depend on the processing

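The count of called members was 0 in each pair and in the average and 1 in the differences between pairs. With the replicate number as a block it was 6 in the NKT pair, 5 in the CD8 pair, 6 in the B pair (2 higher in B1 cells, Ppp1r14b and Ptprs, and 4 lower, Dusp6, Ptpn6, Ptprcap and Ppp1r18), 9 in the average and 9 in the differences, while the probe sets called, of 12422, numbered 601, 398, 353, 694 and 799 in the same order, against 202, 23, 142, 200 and 218 without the block. In the NKT pair it was 1 with median centring, quantile normalization or the offset (Ptprv each time) and 1 with the dim filter or the trended prior (Dusp6 each time). In the B pair it was 1 with quantile normalization or the offset (Ptpn6). In the differences it was 0 with median centring (Dusp6 at 2.60, adjusted p = 0.06) and 0 with the mean of probe sets (1.36, adjusted p = 0.072). Without the replicate 1 arrays it was 4 in the NKT pair (Dusp1, Dusp6, Ppp3cc and Ptpro), 1 in the CD8 pair (Ptprcap), 3 in the B pair (Dusp6, Ppp1r14b and Ptprcap), 1 in the average and 5 in the differences, with 356, 190, 227, 313 and 595 probe sets called; each B group then holds 1 array, and its spread is taken from the T-cell groups. A fit chosen after seeing the data, the block without the replicate 1 arrays, gave 11 in the NKT pair (10 higher) and 18 in the CD8 pair (14 higher), of 972 and 1590 probe sets called. With 1 array left out in turn the counts ranged from 0 to 2 in the NKT pair, were 0 in the CD8 pair and the average, and ranged from 0 to 1 in the B pair and 0 to 2 in the differences. The cause of these changes was not tested. Of 2225 values of single genes under the alternatives, 0 changed sign with a call or beyond the SE of both fits, 63 gained a call and 7 lost one. The dim filter kept 7246 probe sets and 49 members. With 2 or 3 arrays a group and probe sets near background, small differences could not be told from none.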
